A study of Mus musculus with 32 samples.

Results

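The genes described here are 38 members of the ATF4 stress response and of the unfolded protein response. They were given as a list of symbols, which matched 38 of the 50600 genes in the count table through the GENCODE annotation. Of these, 33 form the ATF4 arm, sorted here by role into transcription factors, feedback and stress effectors, secreted hormones, enzymes, amino acid transporters and tRNA synthetases. The other 5 (Hspa5, Xbp1, Herpud1, Dnajb9 and Sdf2l1) serve the endoplasmic reticulum. They were measured by RNA sequencing in 32 primary mouse melanomas, 8 in each of 4 groups: Ecad males, Ecad females, ΔEcad males and ΔEcad females. Every mouse carried NRAS Q61K under the tyrosinase (Tyr) promoter, 1 working copy of Cdkn2a and floxed Cdh1, the gene of E-cadherin. ΔEcad mice carried in addition a Cre recombinase driven by the Tyr promoter, so that deletion was aimed at melanocytes and the other cells of the tumour kept Cdh1. The labels write this allele as Tyr::NRAS/°, where the study's methods give Tyr::CreA/°. Mice had a C57BL/6J background and tumours were taken at about the same size, while the ages are not given in the sources used here. Nothing in the labels says which tumours came from the same mouse, so p-values measure the spread between these tumours.

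ATF4 is a transcription factor whose mRNA is translated more when the initiation factor eIF2 is phosphorylated by a kinase that senses missing amino acids, unfolded proteins, viral RNA or lack of haem. It pairs with C/EBP proteins on a composite DNA element and switches on genes that make, import and charge amino acids, as well as genes that dampen the response or favour cell death. The other branches of the unfolded protein response, IRE1 with XBP1 and ATF6, raise the chaperones and the degradation machinery of the endoplasmic reticulum. In melanoma the ATF4 response is known for its link to nutrient shortage and to a less differentiated, invasive state. Because ATF4 is controlled mostly at translation, its mRNA reports less on its activity than the mRNA of its targets does.

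Promoter sequences were read to show where the composite element stands in these genes. RefSeq promoters (GRCm38.p6, 250 bases before to 50 after the annotated start) matched 31 of the 38 members. The ATF4 and C/EBP element, searched as TGATGNAAN on both strands, occurred in 11 of these 31 (35.5%), against 4.5% of the 27025 genes with such a window. The 11 were Aars, Asns, Chac1, Fgf21, Gars, Herpud1, Nupr1, Pck2, Slc7a11, Trib3 and Vldlr. An XBP1 element, TGACGTGG, was in 0 of 31 members and in 0.714% of genes. The endoplasmic reticulum stress element (CCAAT, any 9 bases, CCACG) was in 1 member, Hspa5, and in 0.137% of genes. A match is a string of letters and not a measured binding site. The stretches below are shown for genes whose RNA is described in the text, each on the strand of its gene, with the match in capitals. Where the capitals end in CATCA, the element reads on the opposite strand.
Chac1 (chr2:119351028-119351076, + strand): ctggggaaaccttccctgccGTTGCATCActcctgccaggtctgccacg
Slc7a11 (chr3:50443633-50443699, − strand, 2 facing matches): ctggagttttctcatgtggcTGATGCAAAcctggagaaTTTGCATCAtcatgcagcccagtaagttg
Fgf21 (chr7:45615602-45615650, − strand): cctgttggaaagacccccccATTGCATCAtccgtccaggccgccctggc
Gars (chr6:55037950-55037998, + strand): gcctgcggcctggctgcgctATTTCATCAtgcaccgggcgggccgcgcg
Pck2 (chr14:55540142-55540190, + strand): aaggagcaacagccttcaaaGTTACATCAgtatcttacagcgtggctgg
Herpud1 (chr8:94386296-94386344, + strand): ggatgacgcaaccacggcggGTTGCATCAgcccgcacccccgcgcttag
Asns (chr6:7693214-7693242, − strand): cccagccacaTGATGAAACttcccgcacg
Hspa5 (chr2:34772020-34772048, + strand, endoplasmic reticulum stress element): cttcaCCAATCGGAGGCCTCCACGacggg

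Several libraries stand apart and touch the values that follow. Total counts ran from 24036333 to 63923086 per tumour. Cdh1 RNA was lower in ΔEcad than Ecad males (medians 3.29 and 144.6 TPM, edgeR adjusted p = 0.365), with overlapping ranges of 0.79 to 65.22 and 25 to 281.9 TPM. It did not separate the female groups (46.7 and 30.56 TPM, adjusted p = 0.999), whose ranges were 0.17 to 143.2 and 2.16 to 151.2 TPM. Genotypes in both sexes therefore rest on the labels. The library labelled ΔEcad male 2 had 1752 counts of Xist, against 0 to 46 in the other males, and 0 counts over 4 Y-linked genes. ΔEcad male 7 had a summed 31.78 TPM over 8 melanocytic markers, where every other tumour had at least 5885. Ecad female 3 had 18250 summed TPM over 6 salivary gland markers, against at most 771.2 elsewhere. ΔEcad female 3 had 0 TPM over 5 red blood cell genes and 0.19 over 5 endothelial markers. A bulk tumour does not tell fewer cells of a type from less RNA per cell.

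Levels are given in TPM, in which transcripts are counted relative to gene length and to the total of the tumour. Of the members, 17 overlap another gene, and since the counting is not stated to use strand, their values are uncertain: Atf5, Ddit3, Cebpb, Sesn2, Psat1, Psph, Shmt2, Mthfd2, Aldh1l2, Cth, Slc7a11, Slc7a5, Aars, Wars, Sars, Herpud1 and Dnajb9. Over all 32 tumours the median level was highest for Atf4 itself, at 378.9 TPM, followed by the transporter subunits Slc3a2 (365.8) and Slc7a5 (352.5) and the chaperone Hspa5 (348.5). These neighbours in the order do not stand apart, since their ranges over tumours overlapped. The low end held Chac1 (3.7 TPM), Cth (1.97), Slc7a11 (0.975), Slc7a3 (0.805) and Cbs (0.465). Fgf21 had a median of 0. The spread over tumours was uneven. On the log2 scale of CPM (counts scaled to a common library total), the range over tumours was 10.04 for Cbs, 7.91 for Gdf15, 7.17 for Chac1 and 7.15 for Slc7a11, against 2.59 for Atf4.

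**Figure D1:**
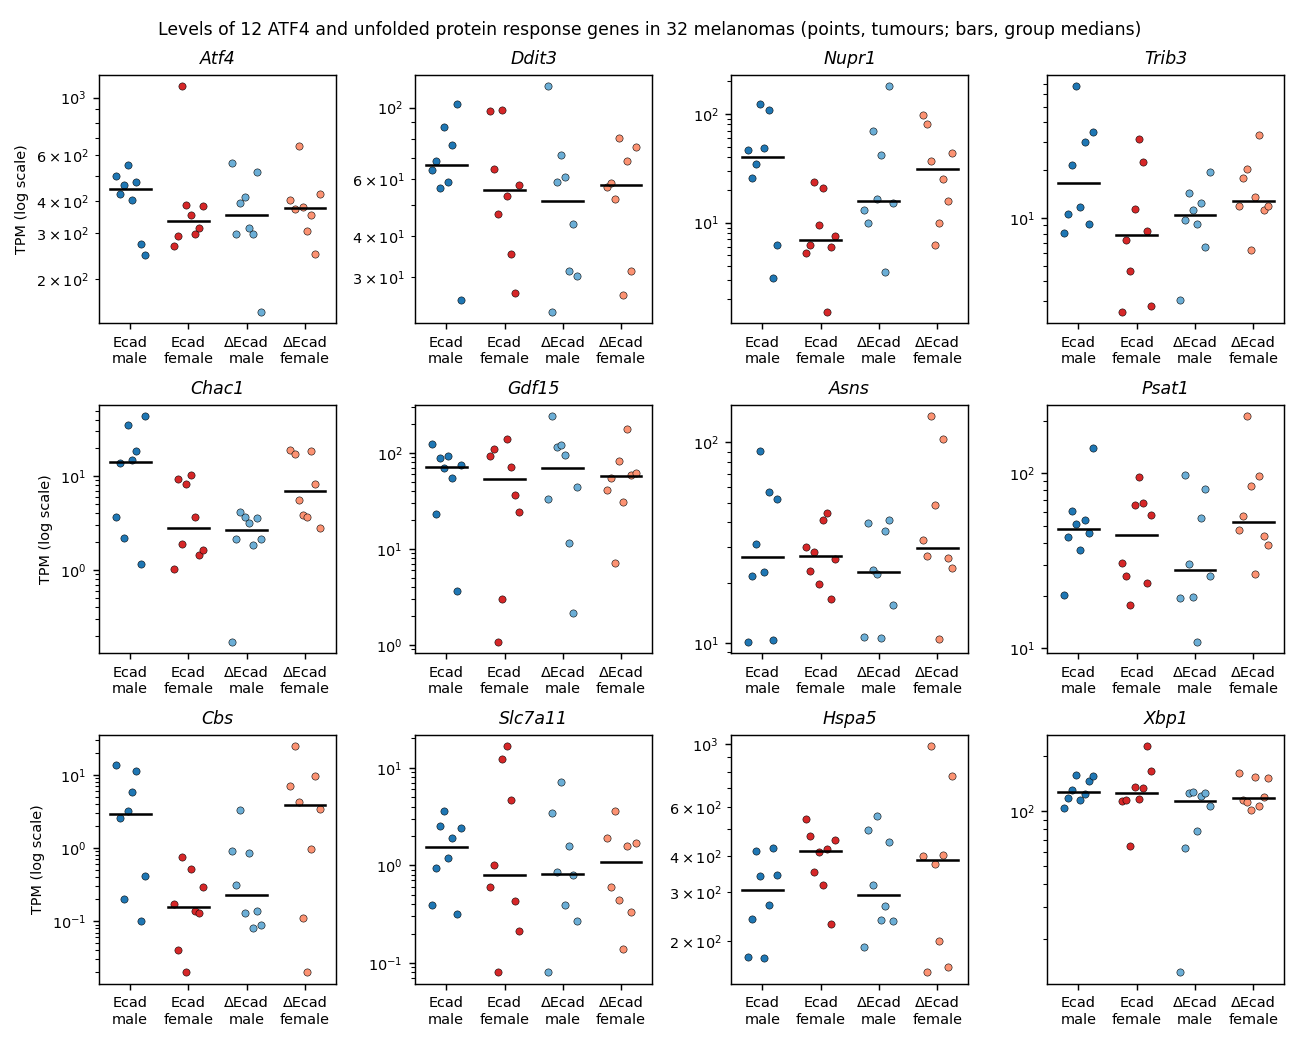
Level of 12 member genes in each of the 32 tumours, in TPM on a log axis, by group. Each point is 1 tumour, bars are group medians, and values of 0 are drawn at 0.02 TPM. The groups overlap for Atf4, Ddit3 and Hspa5, with single high values of Atf4 in Ecad female 3 (1109 TPM) and Hspa5 in ΔEcad female 3 (983.7 TPM). Chac1 is at most 4.15 TPM in ΔEcad males and Cbs at most 0.75 TPM in Ecad females.

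Among the transcription factors, Atf4 and Ddit3 had similar levels in the 4 groups. Atf4 ran from 247.5 to 550.5 TPM in Ecad males (median 442.9), from 267.3 to 1109 in Ecad females (median 332.8), from 149 to 561.2 in ΔEcad males (median 352.9) and from 248.7 to 648.2 in ΔEcad females (median 373.6). Its highest value by far came from Ecad female 3, the tumour with salivary gland RNA. Ddit3, which encodes CHOP, the factor that links lasting stress to cell death, ran from 25.36 to 102.3 TPM in Ecad males (median 66.22), 26.74 to 98.12 in Ecad females (median 55.58), 23.36 to 116.7 in ΔEcad males (median 51.28) and 26.43 to 80.47 in ΔEcad females (median 57.59). All groups overlapped for both genes. Ddit3 shares its position with Mars and Gm4189. Nupr1, a small stress-induced chromatin protein, differed more. It ran from 3.09 to 123.2 TPM in Ecad males (median 40.31), 1.51 to 23.53 in Ecad females (median 6.89), 3.55 to 180.6 in ΔEcad males (median 15.73) and 6.22 to 98.14 in ΔEcad females (median 31.05). The 180.6 TPM came from ΔEcad male 7, the tumour low in melanocytic markers, and the next ΔEcad male was at 68.84. 5 of 8 ΔEcad females and 6 of 8 Ecad males lay above every Ecad female. Atf5, a stress factor related to ATF4, ranged from 49.98 to 409.1 TPM over the tumours, and Cebpb, a C/EBP partner of ATF4, from 17.48 to 476.3.

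Of the feedback and stress effectors, Trib3, Chac1, Ddit4 and Eif4ebp1 had their highest medians in Ecad males. Trib3, a pseudokinase that dampens ATF4 and CHOP, ran from 8.06 to 67.83 TPM in Ecad males (median 16.59), 2.57 to 31.48 in Ecad females (median 7.79), 3.07 to 19.51 in ΔEcad males (median 10.48) and 6.33 to 33.31 in ΔEcad females (median 12.77), with every pair of groups overlapping. Chac1, an enzyme that degrades glutathione, ran from 1.16 to 43.72 TPM in Ecad males (median 14.3), 1.02 to 10.41 in Ecad females (median 2.79), 0.17 to 4.15 in ΔEcad males (median 2.66) and 2.82 to 19.12 in ΔEcad females (median 6.96). 5 of 8 Ecad males and 5 of 8 ΔEcad females lay above every ΔEcad male. The means ± SD (n = 8 each) were 16.64 ± 15.61 TPM in Ecad and 2.61 ± 1.31 TPM in ΔEcad males, and 4.71 ± 3.95 TPM in Ecad but 9.92 ± 7.21 TPM in ΔEcad females. Sesn2, a stress sensor that restrains mTORC1, was highest in ΔEcad females. It ran from 5.23 to 27.4 TPM in Ecad males (median 18.44), 4.77 to 27 in Ecad females (median 15.68), 5.07 to 31.29 in ΔEcad males (median 15.64) and 17.05 to 48.08 in ΔEcad females (median 29.02). 4 of 8 ΔEcad females were above every Ecad female, and 4 of 8 Ecad females were below every ΔEcad female. The others ranged widely over the 32 tumours: Ddit4, an mTORC1 inhibitor also known as REDD1, from 12.5 to 445 TPM, Eif4ebp1, a brake on translation initiation, from 28.02 to 214.7, and the lipoprotein receptor gene Vldlr from 1.22 to 37.76.

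The secreted hormones were at opposite ends of detection. Fgf21, a starvation hormone, was at 0 to 0.58 TPM in Ecad males (median 0.035), 0 to 0.42 in Ecad females (median 0), 0 to 0.22 in ΔEcad males (median 0.075) and 0 to 0.5 in ΔEcad females (median 0). No tumour had over 7 counts, the gene did not pass the filter on low counts, and it was not tested. It was at or under 3 counts in 7 of 8 tumours of each group except the ΔEcad males, where all 8 were. Gdf15, a stress hormone that curbs appetite, was plentiful and uneven. It ran from 3.66 to 124 TPM in Ecad males (median 72.06), 1.07 to 138.4 in Ecad females (median 53.9), 2.18 to 242.9 in ΔEcad males (median 69.99) and 7.21 to 179.6 in ΔEcad females (median 57.06). The spread of Gdf15 lay within the groups, whose medians were close.

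The enzymes of amino acid supply divided into plentiful and scarce genes. Asns, which makes asparagine, ran from 10.12 to 90.29 TPM in Ecad males (median 27), 16.67 to 44.75 in Ecad females (median 27.31), 10.67 to 41.22 in ΔEcad males (median 22.66) and 10.44 to 135.5 in ΔEcad females (median 29.98). Psat1, of serine synthesis, ran from 20.16 to 139.2 TPM in Ecad males (median 48.34), 17.7 to 94.86 in Ecad females (median 44.33), 10.86 to 97.26 in ΔEcad males (median 28.17) and 26.57 to 212.4 in ΔEcad females (median 52.49). Groups overlapped for both, and ΔEcad female 3 had the highest value of each. The other serine and folate enzymes ranged over the tumours from 1.96 to 150.3 TPM (Phgdh, the entry step of serine synthesis), 6.11 to 30.76 (Psph, its last step), 20.41 to 172.3 (Shmt2), 5.46 to 82.33 (Mthfd2) and 0.19 to 35.34 (Aldh1l2), the last 3 acting in the mitochondrial folate cycle. Pck2, the mitochondrial PEP carboxykinase, ranged from 11 to 64.9 TPM.

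Cbs and Cth catalyse the consecutive steps that turn homocysteine into cysteine. Cbs ran from 0.1 to 13.62 TPM in Ecad males (median 2.90), 0 to 0.75 in Ecad females (median 0.155), 0.08 to 3.32 in ΔEcad males (median 0.225) and 0.02 to 24.66 in ΔEcad females (median 3.87). 6 of 8 ΔEcad females and 5 of 8 Ecad males lay above every Ecad female. The counts behind the low values are small: 0 to 53 in Ecad females, with 2 of 8 at or under 3 counts, against 1 to 1161 in ΔEcad females. Means ± SD (n = 8 each) were 4.67 ± 5.24 TPM in Ecad and 0.731 ± 1.1 TPM in ΔEcad males, and 0.255 ± 0.257 TPM in Ecad but 6.25 ± 8.16 TPM in ΔEcad females. Cth ranged from 0.15 to 10.32 TPM over the tumours.

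Of the transporters, those that feed cystine and cationic amino acids were low and those for large neutral amino acids high. Slc7a11, the cystine and glutamate exchanger, ran from 0.32 to 3.58 TPM in Ecad males (median 1.55), 0.08 to 16.65 in Ecad females (median 0.8), 0.08 to 7.16 in ΔEcad males (median 0.825) and 0.14 to 3.59 in ΔEcad females (median 1.10). 3 of 8 Ecad females lay above every ΔEcad female, although the Ecad female median was the lower. Slc7a3, a cationic amino acid transporter, ran from 0.28 to 7.68 TPM in Ecad males (median 1.28), 0.28 to 3.97 in Ecad females (median 0.62), 0.09 to 3.06 in ΔEcad males (median 0.525) and 0.24 to 1.59 in ΔEcad females (median 0.975). Slc7a5 and Slc3a2 encode the subunits of the leucine transporter, and ranged from 39.33 to 1949 and from 117.4 to 1489 TPM. Slc7a1, for arginine and lysine, ranged from 3.85 to 42.38. The 5 tRNA synthetases, which load tRNAs with alanine, glycine, tryptophan, serine and asparagine, ranged over the tumours from 13.03 to 101.7 TPM (Aars), 50.17 to 279.6 (Gars), 16.51 to 181.1 (Wars), 63.82 to 224.7 (Sars) and 93.4 to 327.5 (Nars).

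The endoplasmic reticulum genes were expressed in every tumour. Hspa5, the chaperone BiP, ran from 175.1 to 429.3 TPM in Ecad males (median 305.1), 229.8 to 544 in Ecad females (median 418.8), 191.1 to 556.7 in ΔEcad males (median 292) and 155.3 to 983.7 in ΔEcad females (median 389.5). Xbp1, the transcription factor spliced by IRE1, ran from 104.1 to 157.2 TPM in Ecad males (median 127.9), 64.3 to 227.3 in Ecad females (median 125.5), 13.1 to 128 in ΔEcad males (median 114.4) and 101.1 to 163 in ΔEcad females (median 118). The gene totals do not separate spliced from unspliced Xbp1. Sdf2l1, a chaperone partner of BiP, ran from 52.26 to 135.3 TPM in Ecad males (median 107.7), 80.37 to 353.4 in Ecad females (median 113), 44.71 to 200.9 in ΔEcad males (median 83.88) and 42.3 to 129.1 in ΔEcad females (median 87.71). All groups overlapped for all 3 genes, and 4 of 8 Ecad females lay above every ΔEcad female for Sdf2l1. Herpud1, of the degradation machinery, ranged from 37.84 to 191.1 TPM and Dnajb9, a BiP co-chaperone, from 10.62 to 77.59.

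The design asks whether loss of E-cadherin changes these genes, in females and in males, and whether sex changes them within a genotype. No member was called in any of the 5 comparisons, where called means an edgeR adjusted p under 0.05 and a log2 fold change over 1 in either direction. Of 37 members tested, 0 were called between ΔEcad and Ecad females, where 1.2% of the 17717 genes tested were, and 0 between ΔEcad and Ecad males, where 0% were. Between females and males the count was 0 in Ecad, where 0.0508% of genes were called, and 0 in ΔEcad, where 0.0395% were. The interaction, that is the ΔEcad effect in females minus that in males, gave 0 members, where 0% of genes were called. With DESeq2 the counts of members were 1 (females), 1 (males), 3 (Ecad sexes), 0 (ΔEcad sexes) and 2 (interaction), and with limma, by voom or on log2 TPM, they were 0 in all 5. The DESeq2 counts stand here without the DESeq2 share of all genes, so they cannot be read as above or below background. Calls over all genes changed with the setting as well. Across the alternative settings they ran from 1 to 1281 (females), 0 to 21 (males), 8 to 1023 (Ecad sexes), 0 to 24 (ΔEcad sexes) and 0 to 1225 (interaction). In none of the 4 comparisons of groups did the tumours of a member separate without overlap, where 0.0339%, 0.0282%, 0.113% and 0.00564% of genes did, in the same order. These comparisons share their groups, so they are not independent of each other.

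**Figure D2:**
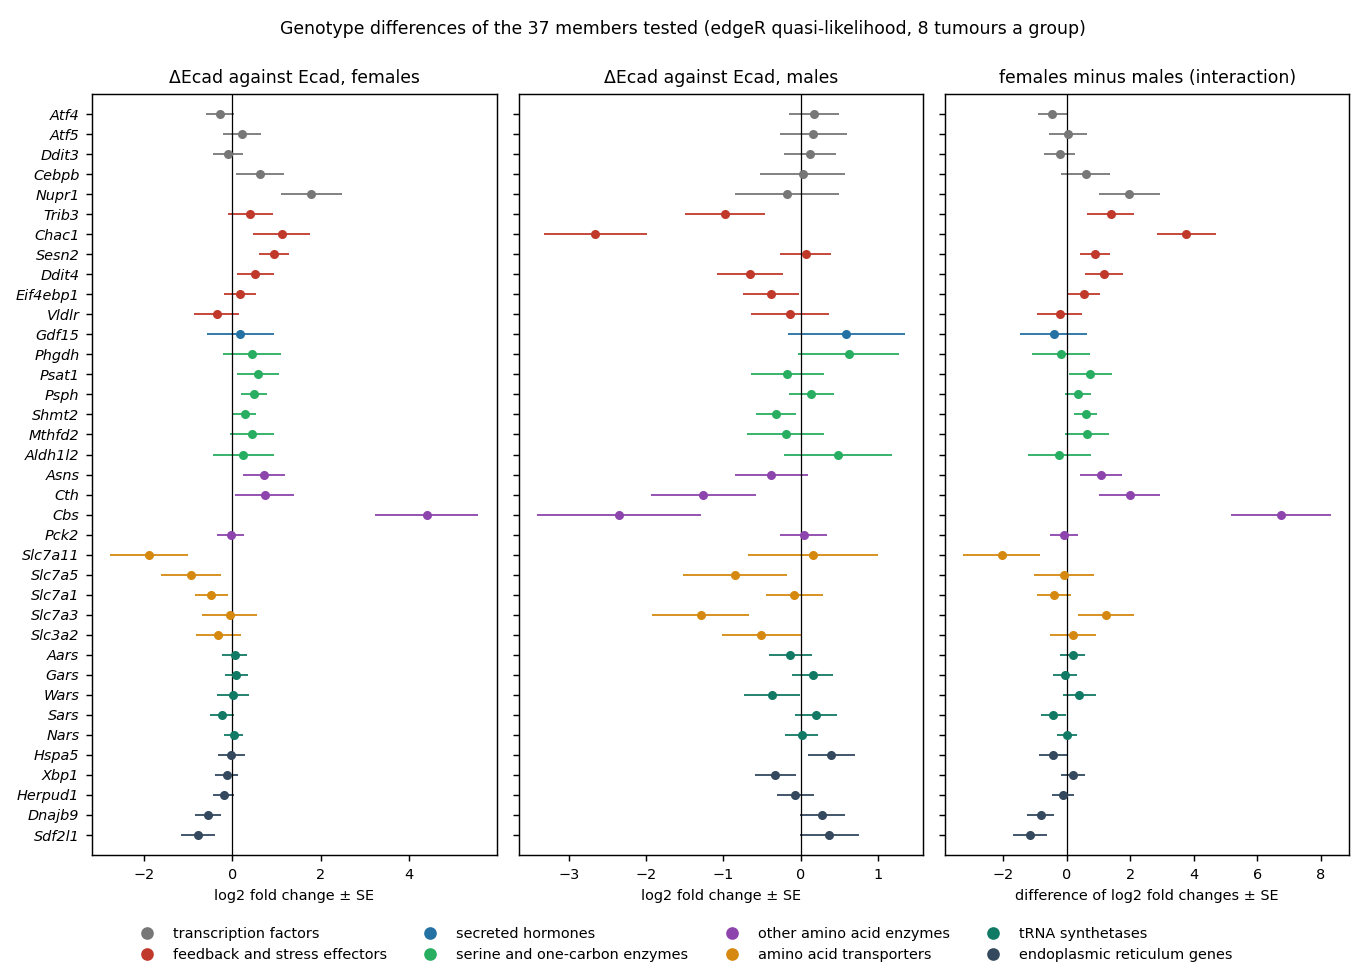
Log2 fold change of the 37 tested members for ΔEcad against Ecad in females, in males, and for the interaction, with bars of ± 1 SE, sorted by role. Cbs and Chac1 have the interactions farthest from 0, at 6.76 and 3.77, and most other members lie within a few SE of 0 in all 3.

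In females, loss of E-cadherin went with higher Cbs, Sesn2 and Nupr1 and lower Slc7a11, none of them past the threshold. The fold change of Cbs was 4.40 on the log2 scale (SE 1.16, adjusted p = 0.0509), just outside it. Without the library labelled ΔEcad male 2, which by its label is in neither female group, the Cbs value was 4.40 (adjusted p = 0.0558). Without ΔEcad male 7 and ΔEcad female 3 it was 4.48 (adjusted p = 0.035), and without Ecad female 3 it was 4.98 (adjusted p = 0.0604). Sesn2 was higher by 0.95 (SE 0.34, adjusted p = 0.128) and Nupr1 by 1.79 (SE 0.69, adjusted p = 0.176). Slc7a11 had a fold change of -1.89 (SE 0.87, adjusted p = 0.283), which became -1.18 (adjusted p = 0.53) without Ecad female 5, -0.746 with voom and -0.576 on log2(TPM + 1). The mean level of Slc7a11 was 4.49 TPM in Ecad females and 1.29 TPM with ΔEcad, the reverse of the order of their medians. At an unadjusted p under 0.05, 3 members were higher and 1 lower, where 11.2% and 4.13% of all genes were, so the members' counts are near that background. All 6 serine and one-carbon enzymes were higher in ΔEcad females (median 0.44, 4 to 6 across the alternative settings), and all 5 transporters were lower (median -0.48, 4 to 5 lower). None of these 11 genes was called. The ATF4 arm as a whole had 22 of 32 tested genes higher with a median of 0.20, beside a median of -0.02 over all genes.

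In males, the members with the smallest p were lower in ΔEcad tumours. Chac1 had a log2 fold change of -2.66 (SE 0.67, adjusted p = 0.365), Cbs of -2.36 (SE 1.06, adjusted p = 0.463) and Slc7a3 of -1.29 (SE 0.63, adjusted p = 0.485). Without Ecad male 1 the value of Slc7a3 was -0.551 (adjusted p = 0.792), without ΔEcad male 7 it was -1.93 (adjusted p = 0.319), and on log2(TPM + 1) it was -0.654. With DESeq2 the adjusted p of Chac1 was 0.0201. With each tumour left out in edgeR, the library labelled ΔEcad male 2 among them, Chac1 ran from -2.84 to -2.18 and Cbs from -3.10 to -1.89. The adjusted p ran from 0.218 to 0.606 and from 0.259 to 0.65. At an unadjusted p under 0.05, 0 members were higher and 3 lower, against 7.19% and 3.05% of all genes. Within the ATF4 arm 14 of 32 were higher (median -0.14, against 0.11 over all genes). On log2 TPM with limma, where the median over all genes was -0.161, 0 of the 32 were higher.

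Between the sexes in Ecad tumours, 5 of the 6 feedback and stress effectors were lower in females, 2 of them at an unadjusted p under 0.05, and all 5 endoplasmic reticulum members were higher, 1 of them at that p. No member was called, and over all genes 9542 of 17717 were higher. The log2 fold changes were -3.92 for Cbs (SE 1.14, adjusted p = 0.108), -2.20 for Nupr1 (SE 0.70, adjusted p = 0.122) and -1.94 for Chac1 (SE 0.65, adjusted p = 0.139). Trib3 had -1.10 (SE 0.52, adjusted p = 0.294), and -0.553 (adjusted p = 0.589) without Ecad male 4. Dnajb9 was the member on the other side, at 0.67 (SE 0.29, adjusted p = 0.248). DESeq2 gave adjusted p of 0.00315, 0.0193 and 0.0278 for Cbs, Nupr1 and Chac1. At an unadjusted p under 0.05, 1 member was higher and 4 lower, where 5.71% and 10.3% of genes were. The 5 endoplasmic reticulum members had a median of 0.45 beside 0.05 over all genes, and 4 to 5 were higher across the alternative settings. Markers of other cells moved in the same comparison: all 8 keratinocyte markers were lower in Ecad females, 7 at an unadjusted p under 0.05, and all 5 adipocyte markers were lower, 5 at that p. With the keratinocyte and melanocytic scores as covariates the fold changes were 0.178 for Dnajb9 (adjusted p = 1), -0.777 for Nupr1 (adjusted p = 0.988) and -1.28 for Cbs (adjusted p = 0.997).

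Between the sexes in ΔEcad tumours the order of Chac1 and Cbs was the opposite. Chac1 was higher in females by 1.84 (SE 0.65, adjusted p = 0.484), Cbs by 2.84 (SE 1.08, adjusted p = 0.503), Sesn2 by 0.73 (SE 0.34, adjusted p = 0.555) and Cth by 1.44 (SE 0.68, adjusted p = 0.557). These 4 were the members at an unadjusted p under 0.05 on the higher side, where 3.32% of all genes were, and 0 members were on the lower side, where 5.49% of genes were. With each tumour left out, the library labelled ΔEcad male 2 among them, Chac1 ran from 1.62 to 1.99 and Cbs from 2.08 to 3.58. All 6 feedback and stress effectors were higher in ΔEcad females (median 0.34, 5 to 6 across settings), beside 7988 of 17717 genes and a median of -0.06 over all genes, and 1 of the 5 transcription factors was.

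The interaction tests directly whether the ΔEcad effect differed between the sexes, and Cbs and Chac1 had both the smallest p and the largest size among the members. Cbs had 6.76 (SE 1.57, adjusted p = 0.0509) and Chac1 3.77 (SE 0.92, adjusted p = 0.0526), both just outside the threshold. By p, Sdf2l1 followed with -1.15 (SE 0.54, adjusted p = 0.258), then Cth with 1.99 (SE 0.95, adjusted p = 0.271) and Nupr1 with 1.96 (SE 0.96, adjusted p = 0.282). Slc7a11 was larger in size, at -2.05, with more error (SE 1.21, adjusted p = 0.382). At an unadjusted p under 0.05, 4 members had a positive interaction and 1 a negative one, where 10.7% and 6.94% of all genes did. Without ΔEcad male 7 and ΔEcad female 3 the interactions were 6.67 for Cbs (adjusted p = 0.0399) and 3.90 for Chac1 (adjusted p = 0.0404), and without the library labelled ΔEcad male 2 they were 6.66 and 3.79 (adjusted p = 0.08 for both). DESeq2 called Cbs (adjusted p = 0.00018) and Chac1 (adjusted p = 0.00136). The adjusted p in edgeR moved with single tumours: over the 32 fits that each left 1 tumour out, it ran from 0.0131 to 0.115 for Cbs and from 0.0199 to 0.115 for Chac1.

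Markers of keratinocytes, the main cells of the epidermis, moved with Cbs and Nupr1. The sum over 8 keratinocyte markers had a median of 4394 TPM in Ecad males (range 8.77 to 23610) and 521.2 TPM in ΔEcad males (range 7.16 to 15450). In females the medians were 8.13 TPM in Ecad (range 5.21 to 1991) and 6771 TPM in ΔEcad tumours (range 9.51 to 35330). All 8 markers were higher in ΔEcad than in Ecad females, 7 at an unadjusted p under 0.05. None was at 0 throughout a group. The keratinocyte score, the mean log2 CPM of these markers, left a gap between 2.14 and 4.67, so tumours were read on each side of it. The division and the genes read against it were chosen after the values were seen, so their correlations are descriptions with no p, and the difference between the sides was not tested. Of the 18 tumours above the gap, 7 were Ecad males, 2 Ecad females, 4 ΔEcad males and 5 ΔEcad females.

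Above the gap Cbs had a median of 2.90 TPM (0.2 to 24.66), and below it 0.12 TPM (0 to 4.31). The 4.31 TPM came from ΔEcad female 3, and the next value below the gap was 0.29. Among the 18 tumours above it, Cbs had r = 0.841 and rho = 0.8 with the score, and without the 2 tumours farthest out r was 0.845. Among the 14 below it, r was -0.082 and rho -0.033. Nupr1 had a median of 38.02 TPM above the gap (6.22 to 123.2) and 6.89 TPM below it (1.51 to 180.6, the highest in ΔEcad male 7). Nupr1 had r = 0.671 and rho = 0.618 above the gap (r = 0.58 without 2 tumours), and r = 0.0294 and rho = 0.262 below it (r = 0.255 without 2 tumours). Chac1 too had a higher median above the gap, 9.35 TPM (0.17 to 43.72), than below it, 3.615 TPM (1.02 to 9.41). Chac1 had r = 0.31 and rho = 0.437 above the gap, where r was 0.566 without 2 tumours, and r = -0.216 and rho = -0.407 below it (r = -0.229 without 2 tumours).

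**Figure D3:**
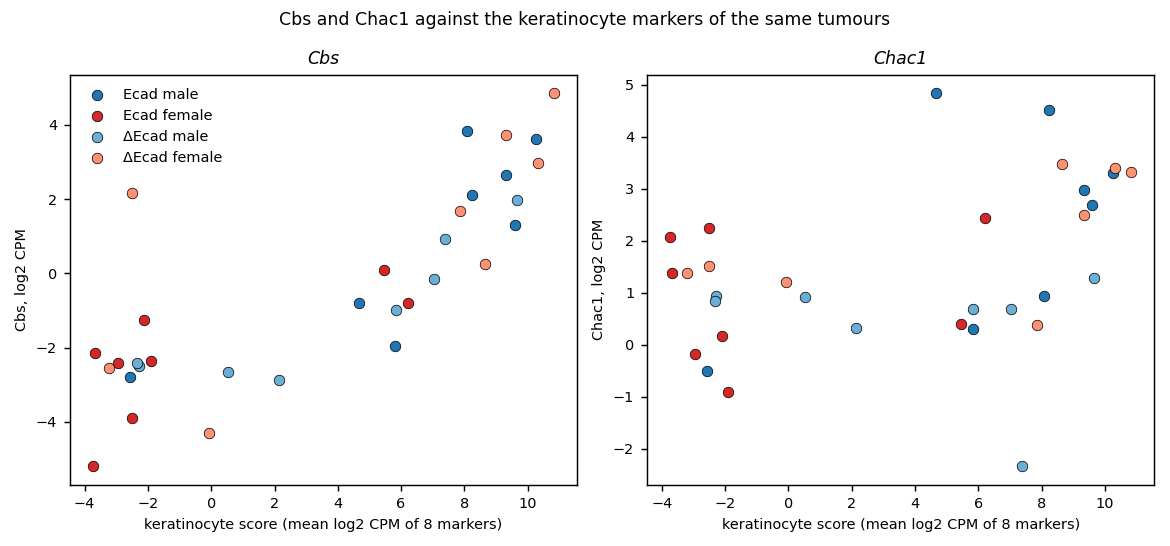
Cbs and Chac1 in log2 CPM against the keratinocyte score in log2 CPM, 1 point per tumour, coloured by group. Cbs climbs with the score above its gap and is near its floor below it except in ΔEcad female 3. Chac1 spreads at all scores, with medians of 9.35 TPM above the gap and 3.615 TPM below it.

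With the keratinocyte and melanocytic scores as covariates, the Cbs fold change in females was 2.27 (adjusted p = 0.503) in place of 4.40, and its interaction 3.98 (adjusted p = 0.39) in place of 6.76. Nupr1 in females was 0.48 (adjusted p = 0.863) in place of 1.79, and its interaction 0.76 (adjusted p = 0.82) in place of 1.96. Chac1 moved less: its interaction was 2.88 (adjusted p = 0.475) and its fold change in males -2.35 (adjusted p = 0.298). Adipocyte markers moved the same way over the groups. Their sum over 5 genes had medians of 226 TPM in Ecad and 76.15 TPM in ΔEcad males, and of 28.68 TPM in Ecad but 128.4 TPM in ΔEcad females. Skeletal muscle markers, also 5 genes, had medians of 2386, 326.1, 13.7 and 953.8 TPM in the same order. The part that these cells have in the levels of Cbs, Nupr1 and Chac1 was not tested beyond these values.

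Further genes of the pathway, beyond the members, had no call either. Of 8 stress kinases, phosphatases and eIF2 subunits, 2 were higher in ΔEcad females, 4 in ΔEcad males, and none was called. Eif2b5, a subunit of the eIF2 exchange factor, had the smallest p of these in males, at 0.53 (SE 0.22, adjusted p = 0.441). Of 19 other ATF4 targets, 14 were higher in ΔEcad than Ecad females and 9 in ΔEcad than Ecad males, with 0 called in both. Stc2, a secreted glycoprotein induced by ATF4, had medians of 3.97 TPM in Ecad and 1.38 TPM in ΔEcad males, and of 0.415 TPM in Ecad but 2.35 TPM in ΔEcad females. Its log2 fold change was -3.23 between the Ecad sexes (SE 0.80, adjusted p = 0.0869) and -1.88 between ΔEcad and Ecad males (SE 0.76, adjusted p = 0.441), and its interaction was 3.85 (SE 1.08, adjusted p = 0.0607). Of the 25 other endoplasmic reticulum genes tested, 25 were higher in Ecad females than Ecad males (median 0.43, 15 to 25 across settings), 1 was higher in ΔEcad than Ecad females (median -0.31, 1 to 10 across settings) and 19 in ΔEcad than Ecad males, with 0 called. The 15 is the count with the marker scores as covariates. Derl3, a degradation factor abundant in secretory cells, was at 3.43 TPM in Ecad females and 1.21 in ΔEcad females (medians), a fold change of -2.38 (SE 0.78, adjusted p = 0.0961). Of 6 plasma cell markers, 5 were lower in ΔEcad than Ecad females, 2 at an unadjusted p under 0.05. Their sum had a median of 34.02 TPM in Ecad females (2.49 to 22950, the highest in Ecad female 6) and of 250.8 TPM in ΔEcad females (0.31 to 1973), so the medians had the opposite order. Their part in the endoplasmic reticulum values was not tested.

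The tRNA synthetases varied together across tumours, while Atf4 and Ddit3 varied little with the other members. Over the 666 pairs of tested members, the median Pearson r of log2 CPM was 0.169 and 9.91% of pairs exceeded 0.5, beside -0.001 and 4.78% over all 156937186 pairs of tested genes. Within the tRNA synthetases 7 of 10 pairs exceeded 0.5 (median 0.551). Atf4 exceeded 0.5 with 0 of the 31 other members of its arm (median 0.077) and Ddit3 with 0 (median -0.124), whereas Trib3 did with 7 and Asns with 8. These are descriptions over the same 32 tumours, which share libraries and differ in their mix of cells.

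**Figure D4:**
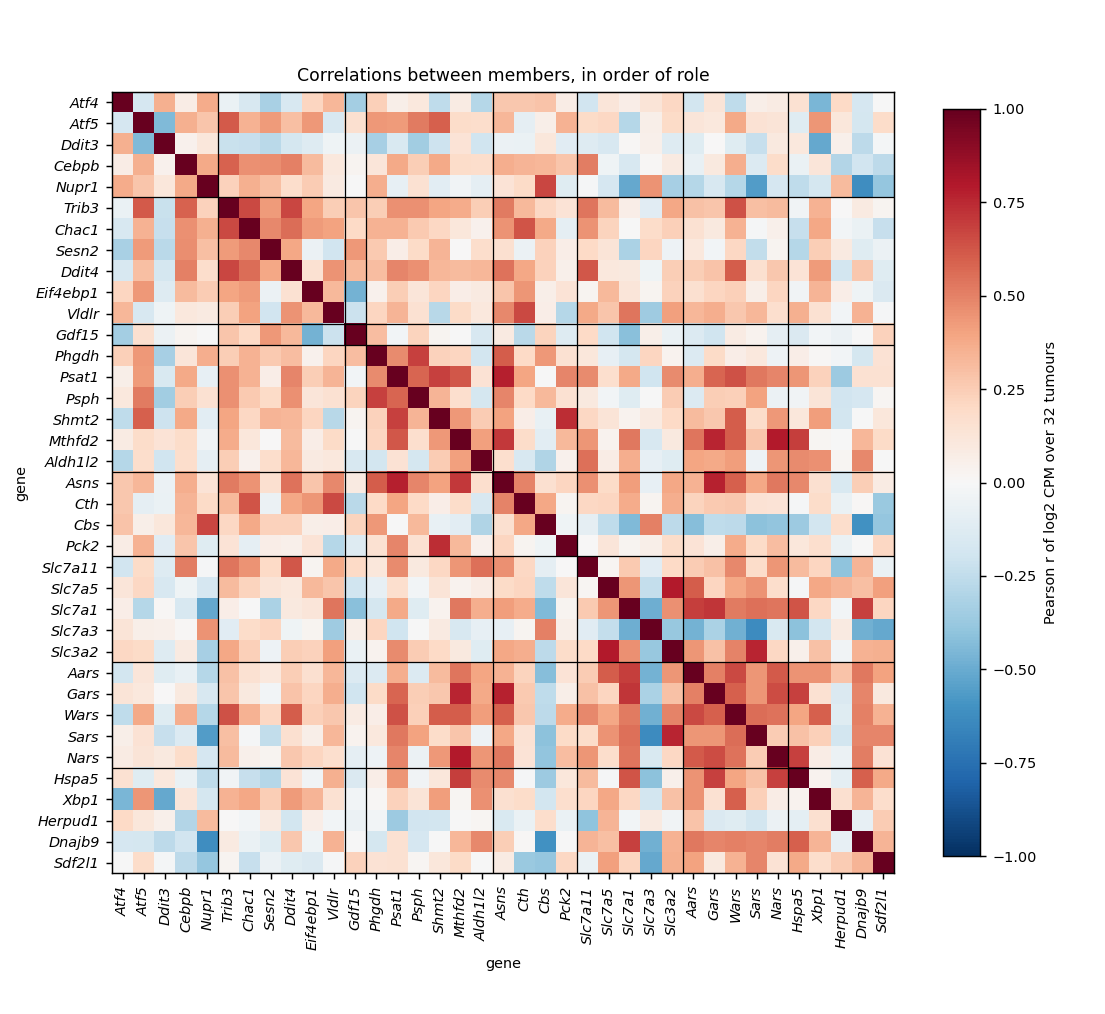
Pearson r of log2 CPM over 32 tumours for each pair of the 37 tested members, sorted by role, on a scale from blue (negative) to red (positive). The tRNA synthetases form a red block, with 7 of 10 pairs over 0.5, and the lines of Atf4 and Ddit3 stay pale.

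A set of 8 pairs was tested by permutation, with adjustment over the 8. The permutation treats the tumours as exchangeable, so its p does not allow for groups or for a shared mix of cells. The fibroblast score, the mean log2 CPM of 6 fibroblast markers, had r = 0.50 with Trib3 and 0.53 with Chac1. It had r = 0.42 with Ddit4 and 0.50 with Slc7a11, and lower values with Asns (0.22) and Psat1 (0.21). With Ddit3, Hspa5, Herpud1 and Sdf2l1 its r was negative. The part of fibroblasts in these pairs was not tested. As a background, 4.78% of all pairs of tested genes had an r over 0.5 and 3.33% an r under -0.5. Asns and Psat1 were closest, with r = 0.779 and rho = 0.765 (adjusted permutation p = 8e-05 for both, the smallest that can be had here), and r was 0.519 to 0.96 within the 4 groups and 0.727 without 2 tumours. Trib3 rose with Ddit4 (r = 0.667, adjusted permutation p = 0.00012, rho = 0.613, adjusted p = 0.00124, and r = 0.643 without 2 tumours) and with Chac1 (r = 0.657, adjusted permutation p = 0.000133, rho = 0.584, adjusted p = 0.00197, and r = 0.549 without 2 tumours). Within groups these ran from 0.123 to 0.786 and from 0.493 to 0.698. Slc7a11 and Chac1, which supply and consume the parts of glutathione, gave r = 0.446 (adjusted permutation p = 0.0214) and rho = 0.445 (adjusted p = 0.0216), with 0.186 to 0.724 within groups and 0.447 without 2 tumours. Trib3 and Ddit3, a target and its activator, gave r = -0.221 (adjusted permutation p = 0.301) and rho = -0.264 (adjusted p = 0.194), with -0.5 to 0.00579 within groups and -0.341 without 2 tumours.

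The endoplasmic reticulum pairs were looser. Hspa5 and Sdf2l1 gave r = 0.377 (adjusted permutation p = 0.0533) and rho = 0.353 (adjusted p = 0.0764), from -0.0694 in Ecad females to 0.95 in Ecad males, and 0.221 without 2 tumours. Hspa5 with Herpud1 gave r = -0.1 (adjusted permutation p = 0.668) and rho = -0.187 (adjusted p = 0.35), with -0.8 to 0.321 within groups. Trib3 with Hspa5, across the arms, gave r = -0.0361 (adjusted permutation p = 0.844) and rho = -0.115 (adjusted p = 0.527), with -0.357 to 0.593 within groups. Without 2 tumours these were -0.0763 and -0.00793.

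Each tumour was also placed by the mean log2 CPM of the 32 tested ATF4 arm genes and of the 5 endoplasmic reticulum genes. The arm had medians of 5.14 in Ecad males (range 4.45 to 6.21) and 4.94 in ΔEcad males (range 4.33 to 5.21). In females they were 4.78 in Ecad (range 4.35 to 5.47) and 5.26 in ΔEcad tumours (range 4.65 to 5.90), and all groups overlapped. The tumours named next are ranked in log2 CPM. Ecad male 4 had the highest arm level and stood above the mean over tumours for all 37 members. It held the highest Trib3, Ddit4, Eif4ebp1 and Wars of the series. ΔEcad male 1 had the lowest arm level, with the lowest Chac1, Ddit4, Vldlr, Aldh1l2, Aars and Xbp1 and yet the highest Ddit3. ΔEcad female 3 held the highest value of 9 members (Cebpb, Psat1, Shmt2, Mthfd2, Asns, Cth, Pck2, Nars and Hspa5), and its 6 macrophage markers summed to 11.66 TPM, the lowest of its group, whose median was 1133. Ecad female 3 had the highest Atf4, Vldlr, Slc7a5, Slc7a1 and Herpud1 and the lowest Gdf15, Shmt2, Pck2, Slc7a11 and Wars. The library labelled ΔEcad male 2 had the highest Gdf15, Phgdh and Psph and the lowest Herpud1.

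**Figure D5:**
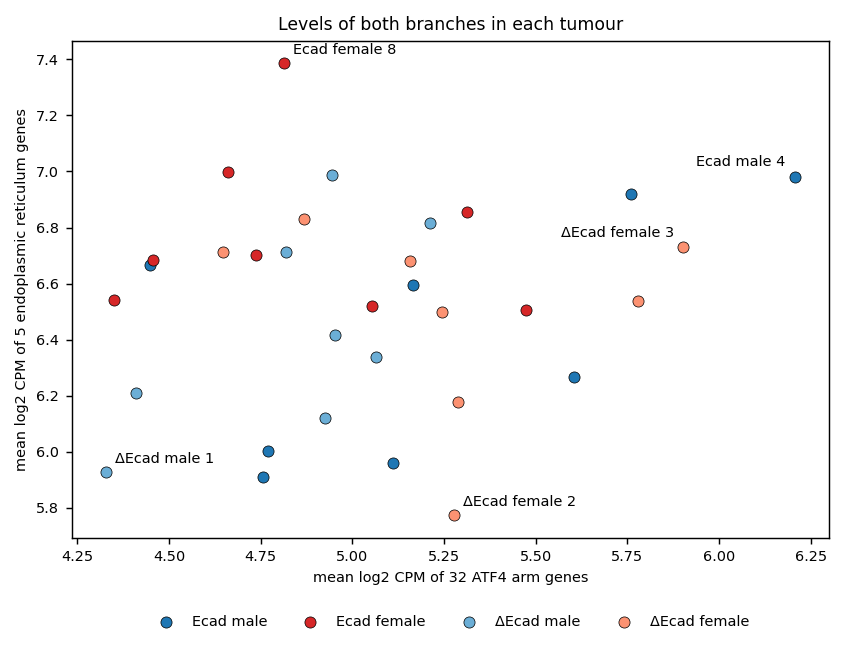
Mean log2 CPM of the 5 endoplasmic reticulum genes against that of the 32 tested ATF4 arm genes, 1 point per tumour, coloured by group. Ecad male 4 lies farthest right at 6.21 and Ecad female 8 highest at 7.39, and the groups overlap on both axes.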

How the data were processed

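RNA of 32 tumours was sequenced from stranded polyA libraries. The authors mapped the reads with STAR to mm10 (GRCm38.p5, GENCODE M13), made the expression tables with STAR, and deposited raw counts per gene as whole numbers. FastQC 0.11.5 is named in the submitters' processing notes. They also deposited TPM, which here equals the counts rescaled by 1 length per gene. They describe ComBat batch correction where applicable, without saying for which data, and do not say whether counting used strand.

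Counts were tested with edgeR 4.0.16 (two-sided quasi-likelihood, robust, TMM factors, filterByExpr) in 1 model of all 32 tumours, with Benjamini-Hochberg adjustment over the 17717 genes kept. SEs were derived from the test statistic. Relations used log2 CPM (prior count 1) and two-sided permutation with 100000 resamples. The scripts were tested on simulated data. Intervals and floors would cover counting error only.

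The members and lists were chosen with earlier results of these data known. Values by group are given for Atf4, Ddit3, Trib3, Chac1, Asns, Psat1, Slc7a11, Fgf21, Gdf15, Hspa5, Xbp1 and Sdf2l1, for members called, for the 3 with the smallest p per comparison and for the 3 with the widest range. Of the other lists, genes called and the 2 with the smallest p per comparison are named. Groups came from the labels. The 17 members that overlap another gene were found in GENCODE M21. Alternatives were DESeq2 1.42.0, limma 3.58.1 (voom, or log2(TPM + 1)), RLE factors, other filters (none, or 1 CPM in 8 tumours), no robustness, a block for the tumour number, only the tumours compared, covariates for marker scores, each tumour and the tumours that stand apart left out, and an adjusted p under 0.1. R 4.3.3 and Python 3.11.15 were used.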

Additional observations from a re-analysis of the deposited data

Results flagged for a closer look

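In 6 of 148 groups of 8 tumours tested over the 37 members, 1 tumour lay far from the other 7 for a member, by Dixon's criterion on log2 CPM. Chance alone gives about 1 in 20 such groups, and 6 of 148 is not more than that. Atf4 was at 9.63 in Ecad female 3, the tumour with salivary gland RNA, against 7.11 to 8.05 in the other Ecad females. ΔEcad male 1 accounted for 3 of the 6. Its Ddit3 was at 6.95, against 4.19 to 5.22 in the other ΔEcad males, its Chac1 at -2.33, against 0.323 to 1.28, and its Xbp1 at 4.72, against 6.25 to 7.47. Phgdh was at 0.82 in Ecad male 7, against 3.58 to 5.35 in the other Ecad males, and at 1.4 in Ecad female 4, against 3.71 to 5.54 in the other Ecad females. Causes of these values were not tested.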

How the results depend on the processing

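The calls of members depended on the setting for Cbs, Chac1 and Nupr1. In females the count went from 0 to 1 (Cbs) with DESeq2, with RLE factors (adjusted p = 0.0476), without the filter on low counts (0.041), without robust estimation (0.0499), without ΔEcad male 7 and ΔEcad female 3 (0.035), and at an adjusted p under 0.1. In males DESeq2 gave 1 (Chac1) and between the Ecad sexes 3 (Cbs, Chac1 and Nupr1). For the interaction the count went from 0 to 2 (Cbs and Chac1) with DESeq2, RLE factors, no filter, without ΔEcad male 7 and ΔEcad female 3, and at an adjusted p under 0.1. With each tumour left out in turn, the count ran from 0 to 1 in females and from 0 to 2 for the interaction, and it stayed at 0 in the other 3 comparisons. The count over all genes moved in the same fits, from 1 to 695 in females and from 0 to 848 for the interaction. In the other settings it ran from 1 to 1281 and from 0 to 1225, so these crossings are not particular to the members. Cbs was called in females without Ecad male 3 or 7, Ecad female 5, ΔEcad male 3, 4, 6, 7 or 8, or ΔEcad female 3, 4, 5 or 8. Cbs and Chac1 were called for the interaction without Ecad male 3 or 7, Ecad female 5, ΔEcad male 3, or ΔEcad female 3, 4, 5 or 8, and without Ecad male 8 Cbs alone was. Recomputed fold changes of the members at an unadjusted p under 0.05 kept their direction in all cases: 894 values stayed on their side of the threshold, 46 crossed to the called side and 0 reversed. These members were picked at that p in the same data, and many of the fits left out only 1 tumour. The kept direction was therefore likely beforehand and says little.

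Tumour numbers did not pair the tumours. Between tumours of different groups, after removing group means, the mean correlation was -0.000233 for the 48 same-numbered pairs and 0.00177 for the others. Of the same-numbered pairs 18 were over 0.1, and 1 of 32 tumours correlated best with its own number. With the replicate number as a block, 0 members were called in all 5 comparisons, and of all genes 1 was called in females, in place of 213. The fold change of Slc7a11 in females was -0.823 with the block.

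The r of Slc7a11 and Chac1 was 0.363 on log2(TPM + 1) (adjusted permutation p = 0.0807) and 0.373 to 0.48 with each tumour left out, at 0.373 (0.0604) without ΔEcad male 1. The r of Hspa5 and Sdf2l1 was 0.454 without the 4 tumours that stand apart (adjusted permutation p = 0.0235) and 0.305 to 0.456 with each left out. Signs near 0 turned for Hspa5 and Herpud1 (0.065 on log2(TPM + 1) and on log2(TPM + 0.1), 0.019 without the 4 tumours) and for Trib3 and Hspa5 (0.092 after removing group means, 0.119 as residuals on marker scores, and -0.085 to 0.025 with each left out, positive at 0.021 without Ecad female 1 and 0.025 without Ecad female 8). Fold changes on log2(TPM + 1) of genes near or below 1 TPM are smaller by construction: Cbs had 1.80 in females and 3.06 for the interaction, and Chac1 -1.74 in males. The other causes were not tested. Low counts limit Cbs in Ecad females and Fgf21 throughout.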

Other observations

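Neighbouring stress programmes were read beside the members. Among 8 cytosolic heat shock genes, Hspb1, a small chaperone that is also plentiful in epidermis, was called in females. Its level had medians of 23.38 TPM in Ecad females (8.78 to 133.5) and 182.5 TPM in ΔEcad females (49.23 to 758.3), and of 279.9 TPM in Ecad males and 55.61 TPM in ΔEcad males. The log2 fold change in females was 2.61 (SE 0.68, adjusted p = 0.0497), and the groups overlapped. The interaction was 3.94 (SE 0.94, adjusted p = 0.0526), and between the sexes it had -2.25 in Ecad (SE 0.67, adjusted p = 0.112) and 1.69 in ΔEcad tumours (SE 0.66, adjusted p = 0.505). Keratinocyte markers had the same order of group medians in females, and their part in the value was not tested. Hspa1b, an inducible HSP70 gene, was higher in ΔEcad females than ΔEcad males by 1.4 (SE 0.56, adjusted p = 0.52).

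Hypoxia, p53 and NRF2 target genes gave no call in any comparison. Of 11 hypoxia genes, 2 were higher in ΔEcad than Ecad females and 6 in ΔEcad than Ecad males. Of 6 p53 targets, 4 were higher in females and 4 in males, and of 6 NRF2 targets 5 and 4.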
